A study of Mus musculus with 2 samples.

Results

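Interferon-stimulated genes were followed through the cell types of mouse parathyroid glands grown from embryonic stem cells. The members were 35 symbols of genes known to be induced by interferon, listed by their known induction and not by a threshold on these data. Earlier results of these data were known when the list was made, so it is not independent of them. Of these, 34 had a row in both libraries, among 32287 features, and Mx1 was not analysed here. All 34 passed the count filter of the test, many of them through the other cell types, since they had few counts in parathyroid barcodes.

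Interferons are secreted proteins that warn cells of infection. Type I interferons bind a receptor made of Ifnar1 and Ifnar2, whose kinases Jak1 and Tyk2 activate Stat factors; Stat2 then acts with Irf9 in a complex that binds the interferon-stimulated response element (ISRE) in promoters. The induced proteins destroy or trap viral RNA, block entry and budding of viruses, and tune the signal itself. Many tissues keep a part of this programme at a low level without infection.

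Droplet single-cell RNA-seq was done in 2 replicates of 1 group, on glands of Gcm2-/- mice on a BDF1B6 background that were complemented with Pth-tdTomato embryonic stem cells. Gcm2 is a transcription factor that the gland needs to form, so that the hosts could not form it themselves, while other cells of the gland can be of host or of stem cell origin. The first pool was made from 3 mice, aged 9 to 12 weeks, in which 50 to 70% of blood cells were chimeric, and the second from 5 mice, aged 6 to 13 weeks, at 60 to 70%; each held both sexes. With 1 group there was no treatment or genotype to compare, and cell classes were compared within the glands.

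Parathyroid barcodes were those with at least 5% of their unique molecular identifiers (UMIs) on Pth, the gene of parathyroid hormone. There were 660 in replicate 1 and 2237 in replicate 2, at medians of 37729.5 and 30583 UMIs. They also held Casr, the calcium-sensing receptor, at 349 and 314 counts per 1000000 UMIs (CPM), against 2.22 and 2.25 CPM in fibroblast-like barcodes. At the limit the classes were well apart, with 0 and 5 barcodes at 4 to 5% Pth and 0 and 3 at 5 to 6%. Barcodes with under 1% Pth were clustered without the members and named from markers, so that each name means "like" that type. Those with enough barcodes were fibroblast-like (231 and 453), endothelial-like (106 and 270), macrophage-like (55 and 133), dendritic-like (51 and 48) and T-cell-like (60 and 58). The libraries shared 3 barcode sequences. In replicate 2, 52 parathyroid barcodes held at least 10 UMIs of the markers of another type and are called mixed, against 1 in replicate 1; values without them are given where they matter.

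The parathyroid barcodes had very little of most members. Of the 34 members, 13 were under 1 CPM in both libraries and are called silent, 13 were between and are called low, and 8 were at 10 CPM or more in both and are called kept. Because the kit reads 3′ ends, CPM values were not scaled by gene length. Summed over the 26 silent and low members, the level was 62.7 and 51.4 CPM in parathyroid barcodes of replicates 1 and 2. The sum was 4302 and 3963 CPM in endothelial-like, 1392 and 1353 in fibroblast-like, 1290 and 1211 in macrophage-like, 1183 and 826 in dendritic-like and 1126 and 690 in T-cell-like barcodes. The endothelial-like sum was 68.7 and 77.0 times the parathyroid sum, and the T-cell-like sum 18.0 and 13.4 times. Because these 26 members were chosen by their low level in parathyroid barcodes, the choice itself enlarges these ratios. The 8 kept members together reached 656 and 633 CPM in parathyroid barcodes and 5085 and 5913 CPM in endothelial-like barcodes. Their sum was 3971 and 4257 CPM in fibroblast-like, 2244 and 2691 in macrophage-like and 2909 and 2450 in dendritic-like barcodes. In T-cell-like barcodes it was 710 and 353 CPM, on both sides of the parathyroid values.

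Against the unweighted mean of the 5 other classes, 32 of 34 members were lower and 0 were higher in parathyroid barcodes (edgeR quasi-likelihood test, Benjamini-Hochberg adjusted p under 0.05). At an unadjusted p under 0.05, and by DESeq2, 0 were higher as well. Of all 13281 genes tested, 21.8% were called lower and 36.1% higher. Members that passed the count filter through the other classes could hardly be called higher, so these counts only describe the members. The members' median log2 fold change was -4.64, beside 0.15 over all genes tested. These fold changes were taken against the mean of the classes' fitted log levels, which a class near 0 pulls down more than a mean of CPM. Among the called members the change ran from -7.83 for Sp100 to -0.70 for Stat2. The other two, Ifi44 and Ifitm1, had no UMI in T-cell-like barcodes, so that their fitted mean difference was undefined; with that class set at its floor of 3 counts the differences were -4.40 and -4.20, and DESeq2, which called 33.2% of genes tested lower, called both lower, at adjusted p = 1.01e-08 and 2.86e-06. Both parathyroid values lay under all 10 library values of the other classes for 23 members, beside 9.16% of genes tested, and over all of them for 0 members, beside 15.4%. The p-values set each class difference against the spread left in 12 sums after the fit, estimated with the help of other genes. Only 2 pools of mice stand behind that spread.

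**Figure D1:**
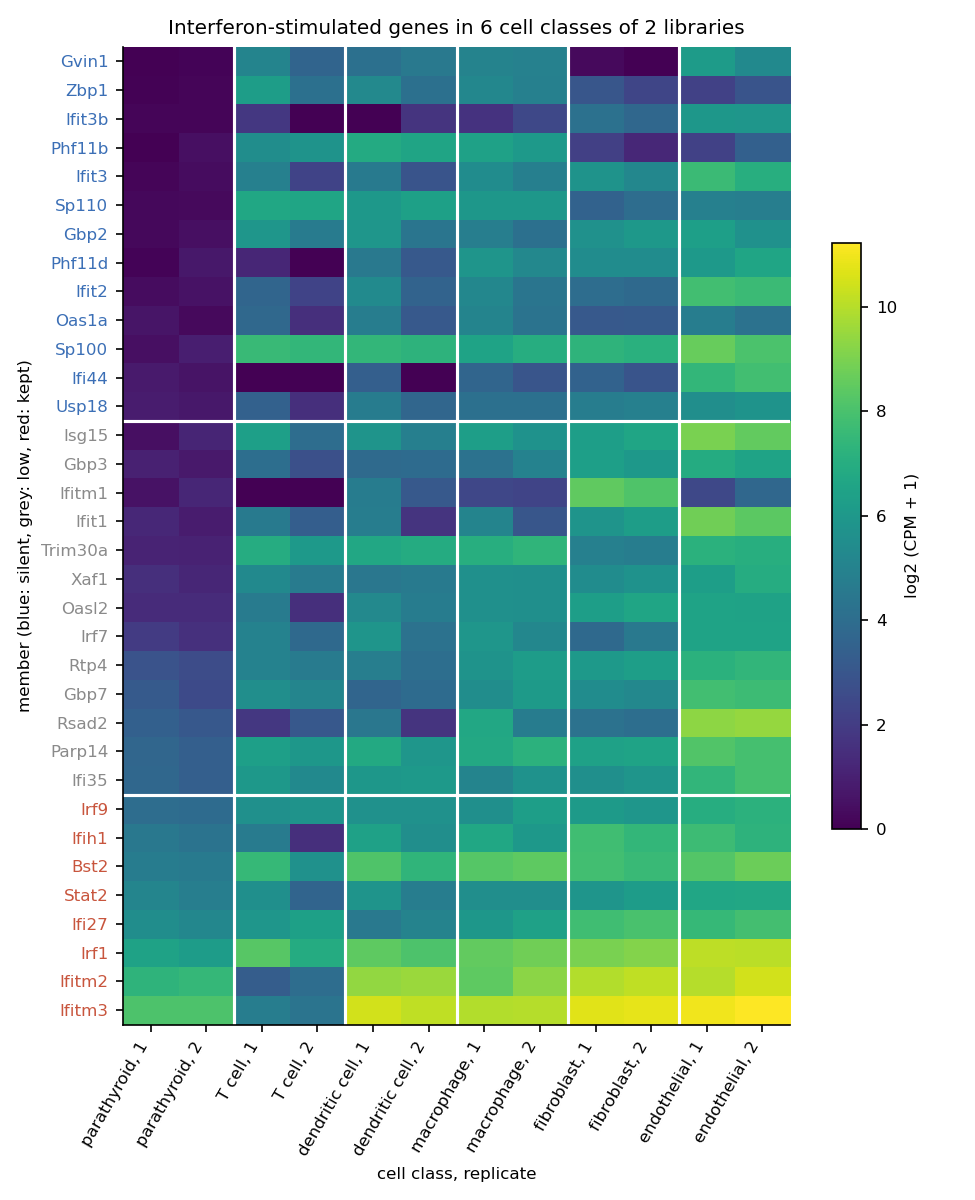
Level of each member as log2 (CPM + 1), in 6 cell classes (columns, replicates 1 and 2 side by side); members are ordered by their state and mean level in parathyroid barcodes. The parathyroid columns are darkest for the 13 silent members, and the endothelial-like columns are brightest for most members.

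The Ifit genes, 4 neighbours in the genome, encode effectors that bind foreign RNA. Ifit1, which captures RNA that lacks a complete cap, was at 1.39 CPM (95% Poisson interval 0.999 to 1.87) in parathyroid barcodes of replicate 1 and 0.811 CPM (0.616 to 1.05) of replicate 2. In endothelial-like barcodes Ifit1 was at 438 and 339 CPM, in fibroblast-like barcodes at 54.5 and 74.5 CPM, and in dendritic-like barcodes at 26.1 and 2.20 CPM. All 10 values of the other classes were above the parathyroid ones, and the fitted log2 fold change was -5.10 (SE 0.49, edgeR adjusted p = 3.17e-06). In replicate 2, 20 of its 58 UMIs were in 1 parathyroid barcode, without which its level was 0.532 CPM.

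Ifit3, a partner of the Ifit complex, was still lower, at 0.0990 CPM (3 UMIs in all) and 0.280 CPM (20 UMIs), and 0.0431 CPM in replicate 2 without mixed barcodes. Endothelial-like barcodes held it at 198 and 130 CPM, and the log2 fold change was -7.05 (SE 0.43, edgeR adjusted p = 6.97e-08). Ifit2 was at 0.297 and 0.448 CPM against 229 and 198 CPM in endothelial-like barcodes, and Ifit3b at 0.0990 and 0.0979 against 59.9 and 57.9. These 3 were silent and Ifit1 was low, in a run of neighbouring genes on chromosome 19.

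Isg15, a ubiquitin-like protein that is attached to other proteins, was at 0.363 and 1.23 CPM in parathyroid barcodes. Without mixed barcodes the values were 0.366 and 0.388 CPM, which would place it among the silent members. Endothelial-like barcodes held 501 and 364 CPM, and the log2 fold change was -6.40 (SE 0.55, edgeR adjusted p = 1.12e-06). Rsad2, the radical SAM enzyme viperin that makes a chain-terminating nucleotide, behaved differently from these. It was at 9.87 and 7.62 CPM in parathyroid barcodes, the third level in order among the silent and low members, after Ifi35 and Parp14. Its distribution among the other classes was uneven, with 635 and 702 CPM in endothelial-like but 17.6 and 15.4 in fibroblast-like, 20.9 and 2.20 in dendritic-like and 2.57 and 7.48 in T-cell-like barcodes. Rsad2 was called lower against endothelial-like and macrophage-like barcodes and not called against fibroblast-like, dendritic-like and T-cell-like ones, with log2 differences of -0.85 (SE 0.45), -0.38 (SE 0.69) and 1.32 (SE 1.00).

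Promoter sequence was read to ask what these members share apart from their levels. The windows below are 30 bases around the ISRE letters GAAANNGAAA, searched on both strands of the RefSeq promoter table (GRCm38.p6; 250 bases before to 50 after each start), printed on the gene's strand with the matched letters in capitals. Those of Ifit1, Ifit3, Ifit3b and Isg15 show members that were low or silent, and those of Stat2 and Bst2 show kept members with the same element.
Ifit1, chr19:34640794-34640823: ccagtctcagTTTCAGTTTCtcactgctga
Ifit3, chr19:34583363-34583392: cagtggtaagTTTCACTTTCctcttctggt
Ifit3b, chr19:34607759-34607788: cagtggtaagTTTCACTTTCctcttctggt
Isg15, chr4:156200871-156200900: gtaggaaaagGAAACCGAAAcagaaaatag
Stat2, chr10:128270266-128270295: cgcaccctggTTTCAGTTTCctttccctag
Bst2, chr8:71537577-71537606: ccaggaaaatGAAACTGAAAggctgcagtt
Gbp2, chr3:142620594-142620623: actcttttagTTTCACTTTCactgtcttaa
Rsad2, chr12:26456553-26456582: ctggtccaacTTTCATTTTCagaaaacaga
Ifit3 and Ifit3b carried the same 30 bases. Counted from the start of transcription, the matches began at position -85 in Ifit1, -72 in Isg15 and -222 in Stat2.

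Of the 28 members in that table, 16 (57.1%) held the ISRE letters, beside 3.94% of 17492 protein-coding genes. The share was 5 of 10 silent, 6 of 11 low and 5 of 7 kept members. The element of activated Stat dimers, TTCNNNGAA, was in 7 of 28 members (25%), beside 8.92% of genes. The letters were thus found in members of every state, and a match is a description of these windows only.

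The nuclear body and chromatin members were the most even group, with all 4 silent. Sp100, a main protein of nuclear bodies that restrict viral genomes, was at 0.363 and 0.895 CPM in parathyroid barcodes and at 0.201 CPM in replicate 2 without mixed barcodes. Every other class held it well above that, from 90.0 CPM in macrophage-like barcodes of replicate 1 to 390 CPM in endothelial-like barcodes of replicate 1. Its log2 fold change of -7.83 (SE 0.37, edgeR adjusted p = 1.04e-08) was the largest decrease among the members with a defined value.

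Sp110, its neighbour on chromosome 1, was at 0.198 and 0.224 CPM against 103 and 97.2 CPM in T-cell-like barcodes, its highest class (log2 fold change -7.49, SE 0.26, edgeR adjusted p = 9.52e-10). Phf11b, a PHD finger protein, had 0 UMIs in replicate 1, which allows up to 0.0990 CPM, and 0.364 CPM in replicate 2. It was highest in dendritic-like barcodes, at 115 and 92.6 CPM, and near 3.43 and 1.35 CPM in fibroblast-like barcodes. Phf11d was at 0.0660 and 0.657 CPM against 65.2 and 96.1 in endothelial-like barcodes. Both Phf11 genes share 3′ sequence with relatives (42.6% and 22.5% of the 50-base words of their last 500 bases), so that the split of reads between them is uncertain.

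The large GTPases, which coat and disrupt the membranes around intracellular pathogens, comprised 2 silent and 2 low members. Gvin1, the very large inducible GTPase, had 0 UMIs in replicate 1 and 5 in replicate 2, all 5 of them in mixed barcodes. Its level elsewhere was 70.5 and 39.6 CPM in endothelial-like barcodes, yet fibroblast-like barcodes also had almost none (0.202 and 0 CPM), and it was not called against them. All 50-base words near its 3′ end are shared with Gm4070, which makes its count uncertain. Gbp2 was at 0.198 and 0.392 CPM and Gbp3 at 1.02 and 0.727 CPM, against 80.2 and 49.9 and 120 and 90.0 CPM in endothelial-like barcodes. Of the 31 Gbp3 UMIs of replicate 1, 22 were in 1 parathyroid barcode that was not mixed; without it the level was 0.298 CPM, which would place Gbp3 among the silent members. Gbp7 kept more, at 7.92 and 4.83 CPM against 229 and 204 CPM, with a log2 fold change of -2.84 (SE 0.23, edgeR adjusted p = 7.69e-07).

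Among the sensors and RNA-degrading systems, Ifih1 stood out as a kept member. Ifih1 encodes MDA5, a sensor of long double-stranded RNA, and was at 21.3 and 18.3 CPM in parathyroid barcodes. The fibroblast-like level was 221 and 172 CPM and the endothelial-like level 205 and 154 CPM, while T-cell-like barcodes held 24.5 and 1.87 CPM, on both sides of the parathyroid values. The log2 fold change against the mean of classes was -1.81 (SE 0.25, edgeR adjusted p = 5.03e-05), and the difference from T-cell-like barcodes was not called (0.85, SE 0.44, adjusted p = 0.138).

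Zbp1, a sensor of Z-form nucleic acids that can trigger cell death, had 1 UMI in replicate 1 and 7 in replicate 2, or 0.0330 and 0.0979 CPM. T-cell-like barcodes held 74.7 and 16.8 CPM and macrophage-like barcodes 35.6 and 28.5, and these 2 classes overlapped. Oas1a, an enzyme whose product activates RNase L, was at 0.561 and 0.210 CPM against 32.4 and 18.2 in macrophage-like barcodes; 56.1% of its 3′ words occur in Oas1g. Oasl2, a related protein, was at 1.62 and 1.57 CPM against 89.0 and 86.7 in endothelial-like and 77.8 and 95.5 in fibroblast-like barcodes. All 3 were called lower than in each of the 5 classes.

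Membrane restriction factors held the most abundant members. Ifitm3, which keeps viruses from fusing with endosomes, was at 269.9 CPM (264 to 276) and 268 CPM (264 to 271) in parathyroid barcodes and had a UMI in 98.0% and 98.5% of them. It was at 2050 and 2394 CPM in endothelial-like, 1713 and 1810 in fibroblast-like, 1389 and 1129 in dendritic-like and 970 and 1012 in macrophage-like barcodes. T-cell-like barcodes held only 25.7 and 18.7 CPM. The parathyroid level therefore lay between T-cell-like barcodes and all other classes.

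The same order held for Ifitm2, at 158 and 175 CPM in parathyroid barcodes, 1020 and 1404 in endothelial-like and 9.01 and 15.0 in T-cell-like barcodes. Against T-cell-like barcodes both were higher in parathyroid barcodes, by log2 3.91 (SE 0.22, edgeR adjusted p = 5.03e-08) for Ifitm3 and 4.18 (SE 0.28, adjusted p = 2.5e-07) for Ifitm2. Against the mean of all 5 classes they were lower, by -1.15 (SE 0.14) and -0.93 (SE 0.17). Ifitm1, which lies between these 2 genes on chromosome 7 (140967221 to 140969825, GRCm38), was at only 0.462 and 1.33 CPM, and at 0.416 CPM in replicate 2 without mixed barcodes. Of the 5 classes tested it was highest in fibroblast-like barcodes, at 360 and 278 CPM, and 0 UMIs were seen in T-cell-like barcodes, which allows up to 3.86 and 5.61 CPM. Neighbouring genes of 1 family thus differed in state in the parathyroid, with the caution that 41.9% of the 3′ words of Ifitm2 occur in other genes.

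Bst2, or tetherin, holds budding virions at the cell surface. It was at 25.3 and 23.5 CPM in parathyroid barcodes against 301 and 419 CPM in endothelial-like and 305 and 348 in macrophage-like barcodes (log2 fold change -3.12, SE 0.37, edgeR adjusted p = 1.49e-05). Rtp4, a receptor-transporting protein, was low, at 6.24 and 5.02 CPM against 145 and 164 in endothelial-like barcodes.

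Of the 4 transcription factors, 3 were kept. Stat2 was at 33.2 CPM (31.2 to 35.3) and 26.9 CPM (25.7 to 28.1) in parathyroid barcodes, against 100 and 106 CPM in endothelial-like and 57.4 and 71.9 in fibroblast-like barcodes. T-cell-like barcodes, at 47.6 and 11.2 CPM, and dendritic-like barcodes, at 55.4 and 26.4, overlapped the parathyroid values. The log2 fold change was -0.70 (SE 0.25, edgeR adjusted p = 0.0308), the smallest of the members, and it was not called when the library was left out of the model (adjusted p = 0.0645). Stat2 was called lower than in endothelial-like and fibroblast-like barcodes only.

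Irf9, the DNA-binding partner of Stat2, was at 15.3 and 14.0 CPM against 128 and 146 CPM in endothelial-like barcodes (log2 fold change -2.10, SE 0.18, edgeR adjusted p = 1.28e-06). Irf1, an early responder to interferon gamma, was at 88.7 and 72.0 CPM against 1100 and 1059 CPM (log2 fold change -2.33, SE 0.28, adjusted p = 1.89e-05). Irf7, which amplifies the type I response, was low, at 2.90 and 1.94 CPM against 91.6 and 90.9 CPM (log2 fold change -3.83, SE 0.37, adjusted p = 2.77e-06). These 3 were lower than in each of the 5 classes, with no overlap of library values.

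Of the remaining induced genes, Ifi27 was kept at 44.0 and 35.5 CPM. It was highest in fibroblast-like barcodes, at 219 and 256 CPM, and its dendritic-like values of 22.0 and 32.0 CPM were below the parathyroid ones, a difference that was not called (log2 0.57, SE 0.27, edgeR adjusted p = 0.0859). Ifi35 and Parp14, a mono-ADP-ribosyltransferase, were just under the kept limit in replicate 2, at 12.3 and 9.54 CPM and at 12.0 and 9.53 CPM. Xaf1, an antagonist of the caspase inhibitor XIAP, was at 1.82 and 1.29 CPM and Trim30a, a ubiquitin ligase, at 1.19 and 1.11 CPM. Usp18, which removes Isg15 from proteins and shuts the type I receptor off, was silent at 0.825 and 0.671 CPM against 45.8 and 53.2 in endothelial-like barcodes. Ifi44 was silent at 0.759 and 0.504 CPM and was highest in endothelial-like barcodes, at 173 and 228 CPM. In replicate 1, 12 of its 23 UMIs were in 1 parathyroid barcode, without which it was at 0.364 CPM.

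**Figure D2:**
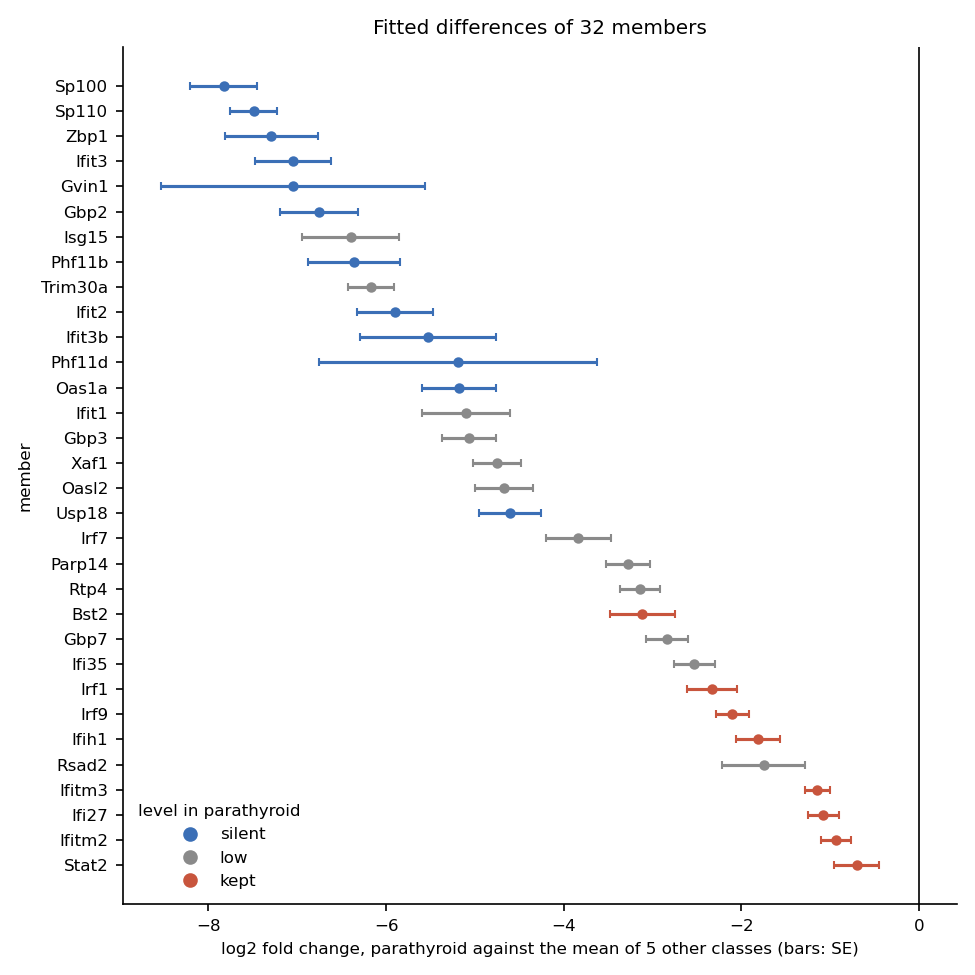
Fitted log2 fold change of parathyroid barcodes against the mean of 5 other classes (x axis), for the 32 members with a UMI in every class. Bars are the SE derived from the test's F statistic, and colours give the state in parathyroid barcodes. Every point lies left of 0, from -7.83 for Sp100 to -0.70 for Stat2.

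Endothelial-like barcodes were the highest of the 5 other classes for 26 of 34 members by mean CPM, and for 23 of them in both libraries. For 22 of the 26 both values lay above those of the class next in order, and for 4 (Gbp2, Oasl2, Ifitm2 and Bst2) they overlapped it. Fibroblast-like barcodes were highest for Ifitm1, Ifi27 and Ifih1, macrophage-like for Oas1a and Trim30a, T-cell-like for Sp110 and Zbp1, and dendritic-like for Phf11b. T-cell-like barcodes were the lowest of the 5 for 16 members and dendritic-like for 9.

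Class by class, parathyroid barcodes were lower for 34 of 34 members against endothelial-like barcodes (25.2% of genes tested were called lower in that comparison). They were lower for 32 against fibroblast-like (29.2%), 32 against macrophage-like (28.8%), 30 against dendritic-like (24.9%) and 24 against T-cell-like barcodes (20.3%). Members called higher numbered 0 in the first 4 comparisons, where 28.3%, 29.2%, 29.9% and 31.7% of genes were called higher; 0 were higher there at an unadjusted p under 0.05 or by DESeq2. Against T-cell-like barcodes 2 were higher, Ifitm2 and Ifitm3 (29.3%). The limit set by the count filter applies to these comparisons too. In all, 23 members were called lower against every one of the 5 classes, 6 against 4, 3 against 3, and Rsad2 and Stat2 against 2. The matching shares over all genes tested are not given here, so these counts only describe the members.

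Levels also varied within classes. Of the endothelial-like clusters, the one led by Flt1, Ly6c1 and Plvap held the 26 silent and low members at 5815 and 4561 CPM in sum, and the one led by Flt1, Mdga2 and Plvap at 2524 and 2556 CPM. Ifit1 was at 710 and 464 CPM in the first and 103 and 79.2 CPM in the second, while Rsad2 was at 642 and 651 and at 486.5 and 789 CPM. Among T-cell-like barcodes, the cluster led by Ccl5 held 1552 and 1478 CPM in sum and the cluster led by Trdc 787 and 550. The first made up 24 of 60 barcodes in replicate 1 and 7 of 58 in replicate 2, which moves with the T-cell-like sum of the 2 libraries. The marker score of the Ccl5 cluster was 5.28 for T cells and 5.01 for natural killer cells, so that its name was a close choice.

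As a measure of stray RNA, each member's parathyroid level was divided by its level in its highest class, and the same was done for 39 markers of the 5 other types. Without mixed barcodes the markers' median was 0.0339% in replicate 1 and 0.0231% in replicate 2. The highest was Zbtb46, a dendritic cell marker, at 2.72% and 2.71%. The next was Cd68, a macrophage marker, at 1.08% and 0.394%, so that the top of the range rests on Zbtb46 alone. All 8 kept members were above every marker in both libraries, from 5.16% to 33.1%. Among the low members Ifi35 and Parp14 were also above every marker in both libraries. The other 11 were above the marker median in both. The silent members lay at 0 to 1.81%; 11 of 13 were above the marker median in both libraries and 0 were above every marker. Usp18 and Oas1a were the highest of them, at 1.81% and 1.74% in replicate 1 and 0.917% and 0.709% in replicate 2. Both were above Cd68 and under Zbtb46 in each library. Within the range of the markers, expression and stray RNA cannot be told apart by this measure.

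**Figure D3:**
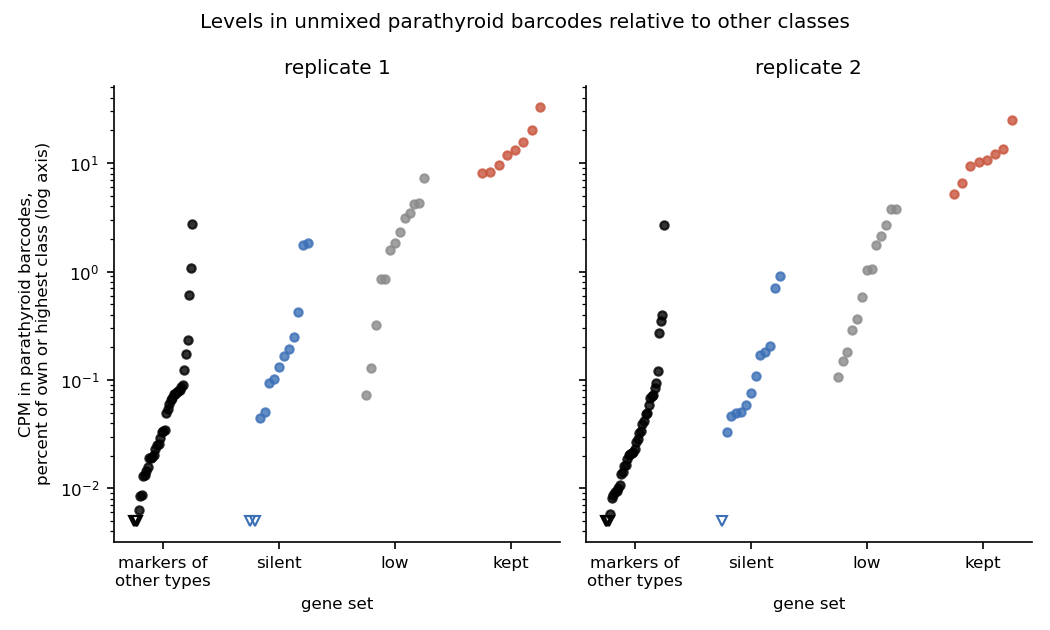
Parathyroid CPM without mixed barcodes as a percent of the level in the own class (39 markers of other types) or highest class (members), on a log axis, 1 panel per replicate; open triangles stand for values under 0.005%. Kept members lie above every marker, and silent members lie within the range of the markers, whose top is set by Zbtb46 alone.

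Mixed barcodes carried a large share of the silent members' UMIs in replicate 2. Over the 13 silent members there were 351 UMIs in 2237 parathyroid barcodes, of which 218 (62.1%) were in the 52 mixed ones. In replicate 1 there were 106 UMIs, of which 1 was in the mixed barcode. The barcode with the most silent members had 11 of 13 and 512 UMIs of fibroblast markers, and the next had 8 and 252 UMIs of endothelial markers. None of the silent members' UMIs were found in 89.4% and 93.4% of parathyroid barcodes. Without mixed barcodes 15 members were silent, Isg15 and Ifitm1 being added, 11 were low and the same 8 were kept, and the summed level of the 26 fell to 41.7 CPM in replicate 2. The median log2 fold change of the 34 members was then -4.93, and 32 were again called lower. The share of all genes called lower without mixed barcodes is not given here.

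Depth differed between classes, so each barcode was also thinned to 5000 UMIs and the distinct members seen were counted. Parathyroid barcodes showed a median of 2 members in each library, endothelial-like 15.5 and 14, fibroblast-like 8.5 and 9, macrophage-like 7 and 8, dendritic-like 7 and 6, and T-cell-like 3 and 4. Without thinning the medians were 7 and 5 in parathyroid and 20 and 17 in endothelial-like barcodes. At least 10 members were seen in 0% and 0.227% of parathyroid barcodes and in 89.0% and 87.5% of endothelial-like ones. The parathyroid and T-cell-like distributions overlapped, and the parathyroid and endothelial-like ones hardly did. In thinning, 16 and 34 parathyroid and 6 and 22 endothelial-like barcodes were left out as too shallow.

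**Figure D4:**
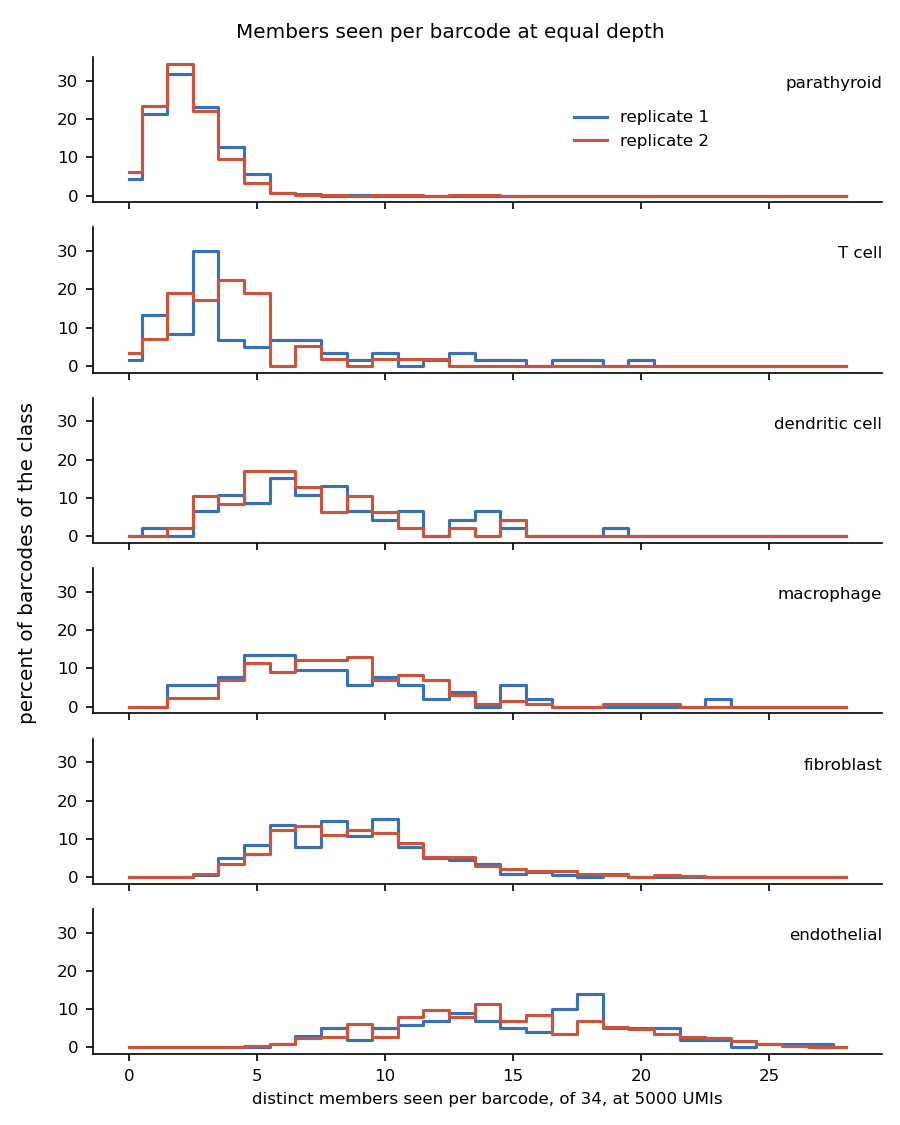
Share of barcodes (y axis, percent of the class) by the number of distinct members seen at 5000 UMIs (x axis), for 6 classes and 2 replicates. Parathyroid barcodes peak at 2 members, and endothelial-like barcodes spread around 14 to 15.5.

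A few parathyroid barcodes that were not mixed held many member UMIs. The median over unmixed parathyroid barcodes was 2 UMIs of the 26 silent and low members in replicate 1 and 1 in replicate 2, and 4 and 1 barcodes held at least 20. In replicate 2, 1 barcode with 15.3% Pth held 89 such UMIs of 12 members, among them 20 of Ifit1, 19 of Rsad2, 14 of Rtp4 and 8 of Irf7, with 41 of Bst2 and 76 of Ifitm3 and 2 UMIs of fibroblast markers. In replicate 1, 1 barcode held 83 UMIs of 15 members, led by Gbp3 (22), Irf7 (17) and Ifi44 (12), with 9 UMIs of dendritic markers. Another held 38 UMIs of Gbp7 and 25 of Ifih1, and another 20 of Ifih1, 16 of Rsad2 and 11 of Ifit1. These 4 barcodes were single cases chosen by their counts, and a doublet that shows no marker was not tested for.

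The 8 kept members were set against the Pth share within the parathyroid gate, without mixed barcodes, of which replicate 2 had 12, 23, 5 and 12 in the 4 ranges of Pth share. Stat2 was at 44.7, 36.3, 27.1 and 21.7 CPM in replicate 1 in barcodes with 5 to 10%, 10 to 15%, 15 to 20% and at least 20% Pth. In replicate 2 it was at 37.0, 29.8, 25.6 and 16.4 CPM, so that it was lower at each step in both libraries. Ifitm3 was at 233, 268, 275 and 266 CPM and at 180, 242, 267 and 264 CPM, with no such order. Ifitm2 was at 122, 154, 171 and 142 CPM and at 138, 159, 174 and 184 CPM, higher at each step in replicate 2. Stat2 was the 1 kept member lower at each step in both libraries, 0 were higher at each step in both, and the other 7 had no order shared by both. The outer bins held few barcodes (34 and 25 in replicate 1), a larger Pth share lowers the CPM of all other genes by construction, and the trend was not tested.

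The genes upstream were measured as lists, against the mean of the other classes. In that comparison 21.8% of all genes tested were called lower and 36.1% higher, and these shares apply to every list below. Listed genes with few parathyroid counts could likewise pass the count filter only through the other classes. Of 12 interferon ligand genes, 10 had 0 UMIs in parathyroid barcodes of both libraries. Ifnk and Ifnz had 26 and 19 UMIs there, of 30 and 21 in total. Apart from Ifng, the ligands at 0 had at most 3 UMIs in total, so their absence was not particular to parathyroid barcodes. Only Ifng had enough counts to be tested; it was at 34.3 CPM on average in T-cell-like barcodes, at 0 in parathyroid barcodes and not called; it had no UMI in 4 of the other classes. The receptors, kinases and Stat factors were all present in the parathyroid: of 11, 10 were called lower and 1 higher. The strongest calls were Ifngr1, the binding chain of the interferon gamma receptor (23.4 and 26.4 CPM; log2 fold change -3.53, edgeR adjusted p = 2.33e-07), Ifngr2 (-2.45), Jak2 (-1.58) and Ifnar1 (14.4 and 13.6 CPM; -1.63). The gene called higher was Ifnlr1, the receptor chain specific for type III interferons, at 8.02 and 9.92 CPM against 2.37 ± 0.76 CPM (SD, n = 2) over the other classes (log2 fold change 4.39, SE 0.51, edgeR adjusted p = 2.27e-05). It was named after its value was seen, and macrophage-like barcodes held a similar level, at 8.79 CPM on average. Its fold change averages the classes on the log scale, where classes near 0 weigh more. It is therefore larger than the ratio of the mean CPM values.

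Of 12 tested nucleic acid sensors and adaptors, 9 were lower and 1, the adaptor Mavs, was higher than the mean of the classes. Mavs was at 14.3 and 12.2 CPM (log2 fold change 0.93, edgeR adjusted p = 0.00233). Endothelial-like barcodes held a similar level of Mavs, at 14.3 CPM on average. Cgas, the sensor of cytosolic DNA, was at 1.35 and 1.23 CPM (-3.91), Ddx60 at 3.17 and 2.34 CPM (-3.36), Myd88 at 7.66 and 7.19 CPM (-2.22) and Unc93b1 at 23.0 and 23.1 CPM (-1.66). Tlr3, a sensor of double-stranded RNA, was not called, at 13.8 and 12.3 CPM. Of 10 IRF factors and their kinases, 6 were lower. Irf2bp1, named after its value was seen, was higher (log2 fold change 1.31, SE 0.18, edgeR adjusted p = 5.06e-05). Irf8, a factor of myeloid cells, was at 1.62 and 2.90 CPM (-4.43), Irf2bp2 and Irf2 were lower by -1.74 and -1.32, and Irf2bpl was not called (-0.21).

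Of 10 tested inhibitors of interferon signalling, 6 were lower and 0 higher. Samhd1, which hydrolyses nucleotides, was at 25.0 and 27.2 CPM (-2.53), Socs1, an inhibitor of Jak kinases, at 3.73 and 3.23 CPM (-3.66), Ptpn1 at 50.5 and 57.0 CPM (-1.08) and Socs3 at 127 and 113 CPM (-1.19). Pias1 was not called, at 110.0 and 93.3 CPM. Of 62 tested further interferon-stimulated genes, 51 were lower, 1 higher and 10 not called, with a median log2 fold change of -3.44. Of these 10, 7 had no UMI in at least 1 of the other classes, so that their fitted values depend on a class at 0. Ifi47, Lgals9, Trim30d and Gbp8 were the strongest calls, at -6.89, -5.92, -5.97 and -6.42, and Eif2ak2, a kinase that stops translation on double-stranded RNA, was not called, at 39.2 and 38.7 CPM. The gene called higher was Ly6e, a membrane protein that restricts coronaviruses, at 1644 and 1727 CPM against 849 ± 115 CPM (SD, n = 2) in the other classes (log2 fold change 1.34, SE 0.13, edgeR adjusted p = 2.41e-06). It was also named after its value was seen, and the highest other class, endothelial-like barcodes, held it at 1454 CPM on average.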

How the data were processed

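Droplet 3′ libraries of 2 gland pools were analysed. The deposited values were raw UMI counts per gene and barcode, made by the authors with Cell Ranger 7.0.0 on mm10, per the submitters' processing notes, with the barcode calling not given in the sources used here. They held 1406 barcodes with 41517620 UMIs and 3518 with 88283761.

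Barcodes with under 500 genes, at least 15% mitochondrial or 5% haemoglobin UMIs, and predicted doublets (23 and 6; the 0.171% found in replicate 2 is too few to show that the caller worked) were left out, which kept 1240 and 3313. Barcodes under 1% Pth were clustered with scanpy 1.11.5 (2000 variable genes, 30 components, 15 neighbours, Leiden resolution 1) without members, pathway genes and Pth. A cluster was named by its best marker score, at least 1, with at least 3 markers each in at least 10% of its barcodes. Classes with at least 20 barcodes per library were summed, which gave 12 sums. A quasi-likelihood model of edgeR 4.0.16 (TMM, filterByExpr) was fitted on all genes with library as a block, since 1 pool of mice gave all classes of a library; 5 residual degrees of freedom remained, and calls used a Benjamini-Hochberg adjusted p of 0.05. The SE printed with an edgeR fold change is its absolute value divided by the square root of the test's F statistic. It therefore holds the same information as the p-value. The script was tested on simulated data. DESeq2 1.42.0, other size factors, filters, limits and clusterings, leaving out each library, and leaving out mixed barcodes (chosen after seeing the data) were alternatives. CPM is the count per 1000000 UMIs of the class in its library, with exact Poisson 95% intervals and a floor of 3 counts, both for counting error only.

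Members, lists and limits were chosen with earlier results of these data known. All members found were reported; of each pathway list, up to 4 called genes of smallest p and the uncalled gene of highest CPM were named, except where an item is not reported here.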

Additional observations from a re-analysis of the deposited data

How the results depend on the processing

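Over 12 alternatives with a test, 31 to 34 members were called lower and 0 higher in parathyroid barcodes against the mean of the other classes. The single classes gave 34 (endothelial-like), 32 to 33 (fibroblast-like and macrophage-like), 29 to 31 (dendritic-like) and 24 to 26 (T-cell-like). Except for DESeq2 against the mean, the shares of all genes under these alternatives are not given here, so the counts only describe the members. Of 408 member values under these alternatives, 401 kept their call and direction, 0 reversed, 6 gained a call (Ifi44 and Ifitm1 under DESeq2, with predicted doublets kept and with other barcodes as 1 class) and 1 lost it. The latter was Stat2 with no replicate block, at -0.69 and an adjusted p of 0.0645; without the block, which pairs classes of the same mice, Ifitm1 was also called lower against macrophage-like barcodes (adjusted p = 0.0452), and no other member call changed in the 6 comparisons. The median log2 fold change ranged from -5.10, with the other barcodes as 1 class, to -4.50. Leaving out each library in turn, with no test, gave -4.32 to -3.89 and kept the sign of all 68 member values. The number of silent members was 13 at 1 CPM, 15 without the barcode richest in each member (chosen after seeing the data), 8 at 0.5 CPM and 20 at 2 CPM, and that of kept members was 8 at 10 CPM, 12 at 5 CPM and 6 at 20 CPM. Silent members rest on 5 to 75 UMIs over both libraries, and a count of 0 allows up to 0.0990 and 0.0420 CPM in the 2 libraries.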

Other observations

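Classes with too few barcodes for the test also held the members. Neutrophil-like barcodes (21 and 16) had the highest sum of the 26 silent and low members of any class in replicate 1, at 5567 CPM, and 2738 CPM in replicate 2. Ifitm1, which was low or at 0 in parathyroid, endothelial-like and T-cell-like barcodes, was at 3172 and 1241 CPM there, and Ifitm2 at 3003 and 2556 CPM. Monocyte-like barcodes (10 and 6) had 1186 and 1390 CPM in sum and the highest Ifitm3, at 3902 and 3243 CPM. Pericyte-like barcodes (10 and 22) had 858 and 1522 CPM in sum, with Ifitm1 at 241 and 447 CPM. A cluster of 6 and 8 barcodes with parathyroid markers and under 1% Pth had 101 and 144 CPM in sum, against 62.7 and 51.4 CPM in parathyroid barcodes, at only 5402 and 3164 UMIs per barcode. The 26 members had been chosen by their low level in the latter.

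The files also count a Gfp entry, whose origin the labels do not give. Endothelial-like barcodes with at most 2 Gfp UMIs held the 26 members at 4437 and 4006 CPM in sum, and those with at least 10 at 4373 and 4082 CPM. For fibroblast-like barcodes the values were 1330 and 1458 CPM against 1442 and 1322 CPM, with no common direction in the 2 libraries for either class.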
